A study of Homo sapiens with 45 samples.

Results

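A set of 53 genes on the long arm of chromosome 16 (16q) was followed across 45 libraries of HAP1, a near-haploid human cell line derived from KBM-7 per the labels. The 53 genes were listed because 16q genes were lower together in cells without ZNF598, and they carry no shared pathway. A mean count of at least 10 over the 45 libraries kept 48 of them, against 9316 genes of the 60676 in the table. The 48 lay between VPS35, the gene nearest the centromere, and CFDP1, a span of 28.8 Mb on GRCh38 (chr16:46656132-75433485). The members were thus chosen by their log2 differences between ZNF598 KO and AAVS1, and so they were described, and not tested, in that comparison.

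ZNF598 KO, RNF25 KO, GCN2 KO, a double knockout of RNF25 and GCN2 (RNF25 GCN2 DKO) and eS31 K113R cells were compared with AAVS1 cells, all in the HAP1 background. AAVS1 is named after a genomic site that is commonly edited as a control. Each of the 6 genotypes was left untreated or given 5 uM azacytidine (azaC) for 4 h, and RNF25 KO, GCN2 KO and AAVS1 cells were also given 25 nM halofuginone (HF) for 4 h. The labels call the 3 libraries of each of the 15 groups biological replicates. How the cultures were kept apart, and whether a knockout line was a single clone, are not stated in the labels, so p-values measure the spread between these libraries. In untreated eS31 K113R, replicates 2 and 3 are titled eS32_K223R and were placed by their described column name.

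ZNF598 is an E3 ubiquitin ligase that marks small-subunit ribosomal proteins when ribosomes collide on an mRNA. RNF25 is another ubiquitin ligase that acts at stalled ribosomes, GCN2 (gene EIF2AK4) is the kinase that starts the integrated stress response, and eS31 is the ribosomal protein encoded by RPS27A. The listed 16q genes act in many parts of the cell. They include subunits of large assemblies such as retromer, the origin recognition complex, RNA polymerase II, CCR4-NOT and the proteasome.

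Libraries held 1135498 to 2478875 counts, with a median of 1541554. Of 12 marker genes of blood cells, none reached a mean count of 10 and 5 had 0 counts in all libraries. KRT18 of 6 epithelial markers and COL1A1 of 6 fibroblast markers reached it. ZNF598 itself, on the short arm (16p, chr16:1997654-2009823), had 41.6, 30.3 and 38.9 CPM (counts scaled to library size) in untreated ZNF598 KO, against 74.4, 56.5 and 55.5 CPM in untreated AAVS1. With azaC it had 47.2, 42.5 and 46.3 CPM in ZNF598 KO, against 86.7, 88.2 and 92.9 CPM in AAVS1. Its mRNA was lower in every ZNF598 KO library than in every AAVS1 library of the same state, and still counted in all. By edgeR's quasi-likelihood test the log2 difference was -0.74 ± 0.20 (SE) untreated, with an adjusted p of 0.0631, and -0.98 ± 0.20 with azaC, with an adjusted p of 0.00331. RNF25 had 0 to 7 counts in any library, too few for a check of its knockout. EIF2AK4 was at -0.998 ± 0.25 in untreated GCN2 KO against AAVS1 (adjusted p 0.0277, edgeR) and at -0.15 ± 0.23 in untreated RNF25 GCN2 DKO (adjusted p 0.914, edgeR), where its libraries overlapped those of AAVS1. mRNA counts do not show whether a protein was lost. The eS31 K113R change was not checked here, since gene counts do not show it. Untreated AAVS1 replicate 2 and azaC-treated RNF25 KO replicate 2 stood apart in how their counts varied with the GC content of the transcripts. Main medians and counts of gene sets that rest on them are also given without them. Shares of counts, interquartile ranges, counts at an unadjusted p and the range over partner lists include them. So do role values and counts of members without overlap in other lines, and values per chromosome, per window and over both states.

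The sequences before the start of 4 of the genes are shown because they mark the set: VPS35 is its centromeric end, CFDP1 its telomeric end, CYB5B the gene with the most negative difference in untreated ZNF598 KO, and GLG1 a gene that, with CFDP1, passed the test in other lines. Each is the 250 bases before the RefSeq start on GRCh38.p14, written 5′ to 3′ on the gene's strand, at chr16:46689179-46689428 (minus strand), chr16:69424369-69424618 (plus strand), chr16:74607115-74607364 (minus strand) and chr16:75433504-75433753 (minus strand). Capitals mark matches, on either strand, to the GC box GGGCGG, the CCAAT box CCAAT and the ETS core CCGGAA, also where matches share bases.
VPS35: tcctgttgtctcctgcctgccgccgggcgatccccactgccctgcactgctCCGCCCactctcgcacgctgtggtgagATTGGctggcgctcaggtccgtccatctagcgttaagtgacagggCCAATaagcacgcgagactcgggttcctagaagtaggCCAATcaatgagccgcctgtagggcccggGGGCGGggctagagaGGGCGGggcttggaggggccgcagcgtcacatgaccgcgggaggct
CYB5B: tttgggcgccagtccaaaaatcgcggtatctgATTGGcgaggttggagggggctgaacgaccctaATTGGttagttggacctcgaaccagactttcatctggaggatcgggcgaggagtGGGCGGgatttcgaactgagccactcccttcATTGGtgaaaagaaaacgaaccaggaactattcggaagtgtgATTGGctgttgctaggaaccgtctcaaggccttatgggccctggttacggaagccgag
GLG1: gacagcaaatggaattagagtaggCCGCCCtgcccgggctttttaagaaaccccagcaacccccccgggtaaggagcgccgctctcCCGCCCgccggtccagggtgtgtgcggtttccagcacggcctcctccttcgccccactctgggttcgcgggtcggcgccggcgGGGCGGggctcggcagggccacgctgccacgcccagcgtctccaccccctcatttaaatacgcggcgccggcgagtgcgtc
CFDP1: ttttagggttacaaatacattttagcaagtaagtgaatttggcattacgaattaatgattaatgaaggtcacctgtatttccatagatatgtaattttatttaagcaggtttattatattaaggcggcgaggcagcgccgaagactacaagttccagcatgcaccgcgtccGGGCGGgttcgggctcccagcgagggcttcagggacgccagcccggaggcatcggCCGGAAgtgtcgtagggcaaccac
The stretch before VPS35 held 3 GC boxes and 3 CCAAT boxes, and that before CYB5B held 1 GC box and 4 CCAAT boxes. The stretch before GLG1 held 3 GC boxes, and that before CFDP1 held 1 GC box and 1 ETS core.

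Promoter windows of 300 bases, 250 before to 50 after the start, were matched in RefSeq for 41 of the 48 genes by symbol. HEATR3, ARL2BP, IRX3, NFAT5, CNOT1, IRX5 and CBFB were not matched. A GC box stood in 33 of the 41 windows (80.5%), against 73.1% of 7228 genes with a mean count of at least 10 and 44.6% of all 27305 windows. The CCAAT box stood in 36.6% of the members' windows, against 37.3% of genes with that mean count and 35.7% of all windows. The ETS core stood in 41.5% of the members' windows, against 32.4% and 17.6%. In 103 windows of other 16q genes with that mean count, the GC box stood in 79.6%, the CCAAT box in 37.9% and the ETS core in 31.1%. The members' windows had a median GC content of 65.7%, close to the 66.0% of genes with a mean count of at least 10. Distances between gene starts use GENCODE positions, not the RefSeq starts of the printed sequences. For VPS35, CYB5B and GLG1 the RefSeq start lies inside the GENCODE gene. By GENCODE, VPS35 and ORC6 start 125 bases apart on opposite strands, and their 5′ ends do not overlap. In all, 9 of the 48 genes start within 1000 bases of the start of a gene on the other strand with a mean count of at least 10. The 5′ ends lie apart for 5 of them and overlap for 4, which are CIAPIN1 with COQ9 (starts 103 bases apart) and NUDT21 with OGFOD1 (709 bases apart).

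In ZNF598 KO, the line they were chosen by, the 48 genes took a smaller share of the counts than in any other line. They made up 2.84 ± 0.15 of every 1000 counts in untreated ZNF598 KO and 3.72 ± 0.48 in untreated AAVS1 (SD, n = 3 each), a ratio of 0.764. With azaC they made up 2.82 ± 0.09 per 1000 in ZNF598 KO and 3.57 ± 0.07 in AAVS1, a ratio of 0.788. The 6 ZNF598 KO libraries lay between 2.73 and 3.02 per 1000, and the 39 libraries of all other groups between 3.32 and 4.27, so none of the 39 reached down into the ZNF598 KO range. Untreated AAVS1 replicate 2 was the highest of all at 4.27. Its sister libraries had 3.46 and 3.43, which were also above every ZNF598 KO library. In bulk libraries, less RNA per cell and fewer cells carrying a usual amount cannot be told apart.

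**Figure D1:**
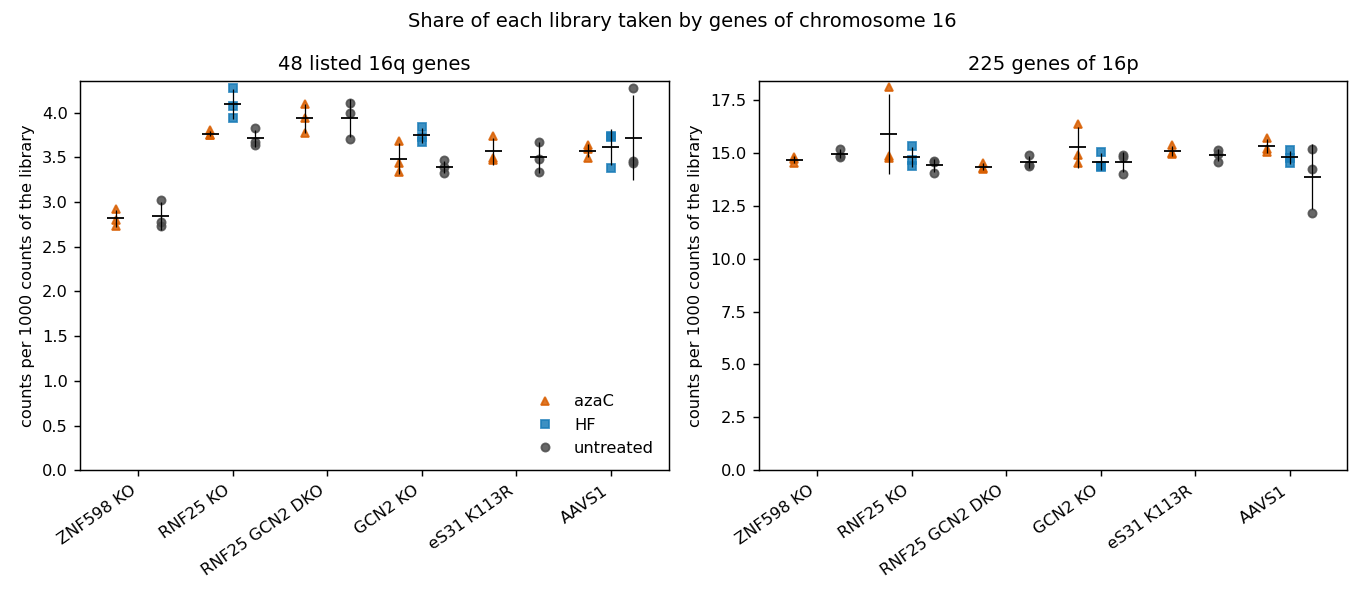
Counts per 1000 counts of each library taken by the 48 listed 16q genes (left) and by 225 genes of 16p with a mean count of at least 10 (right); points are libraries, by genotype and treatment, bars the mean and SD of 3. All 6 ZNF598 KO libraries lie at 2.73 to 3.02 for the 16q genes, below the other 39 libraries (3.32 to 4.27), while for 16p the ZNF598 KO range of 14.5 to 15.2 overlaps the others.

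Gene by gene, 45 of the 48 members were below 0 in untreated ZNF598 KO against AAVS1, beside 49.7% of all 11078 genes fitted. With azaC 41 of 48 were below 0, beside 48.8% of all genes. The median log2 difference of the members was -0.36 untreated and -0.37 with azaC, while the median of all genes was 0.00 and 0.01. The interquartile range of the members ran from -0.58 to -0.12 untreated and from -0.47 to -0.16 with azaC. Without AAVS1 replicate 2 the untreated median was -0.30, with 41 of 48 below 0. In both states 40 members were below 0, beside 28.4% of all genes. For 13 members untreated (5.58% of all genes) and 20 with azaC (6.82% of all genes), every ZNF598 KO library was below every AAVS1 library. Without AAVS1 replicate 2 it was 18 members untreated, beside 11.9% of all genes. HEATR3, NUDT21, CIAPIN1, POLR2C, CNOT1, CMTM3, DYNC1LI2, NAE1, NUTF2, SNTB2 and CYB5B were separated in this way in both states, 11 of 48, beside 1.31% of all genes. All these counts describe the contrast the list was drawn from.

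The rest of 16q was lower as well, in the contrast the list was drawn from. The ZNF598 KO values of 16q given here thus describe that contrast and are no independent support. Of 130 other 16q genes with a mean count of at least 10, 105 were below 0 in untreated ZNF598 KO against AAVS1, with a median of -0.36, and 115 with azaC, with a median of -0.38. With untreated AAVS1 replicate 2 left out, their untreated median was -0.41, with 116 below 0. They took 8.94 to 9.96 per 1000 counts in the 6 ZNF598 KO libraries and 10.4 to 24.3 in the other 39. The 225 genes of 16p had a median of 0.15 untreated and -0.06 with azaC. Without that replicate the untreated 16p median turned to -0.02. Against the same untreated AAVS1 libraries 16p was at 0.10 in RNF25 KO, 0.13 in GCN2 KO, 0.09 in RNF25 GCN2 DKO and 0.14 in eS31 K113R, and without that replicate at -0.04, -0.01, -0.04 and 0.04. The medians of the 22 other chromosomes ran from -0.05 to 0.18 untreated and from -0.06 to 0.08 with azaC. In windows of 5 Mb along 16q the median over members and other genes was below 0 in ZNF598 KO in both states in each of the 9 windows, which held 1 to 47 genes, from -0.56 to -0.19 untreated and from -0.45 to -0.19 with azaC. The members' transcripts had a median GC content of 47.7%, close to the 48.1% of all genes fitted, while the 16p genes had 57.4%.

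**Figure D2:**
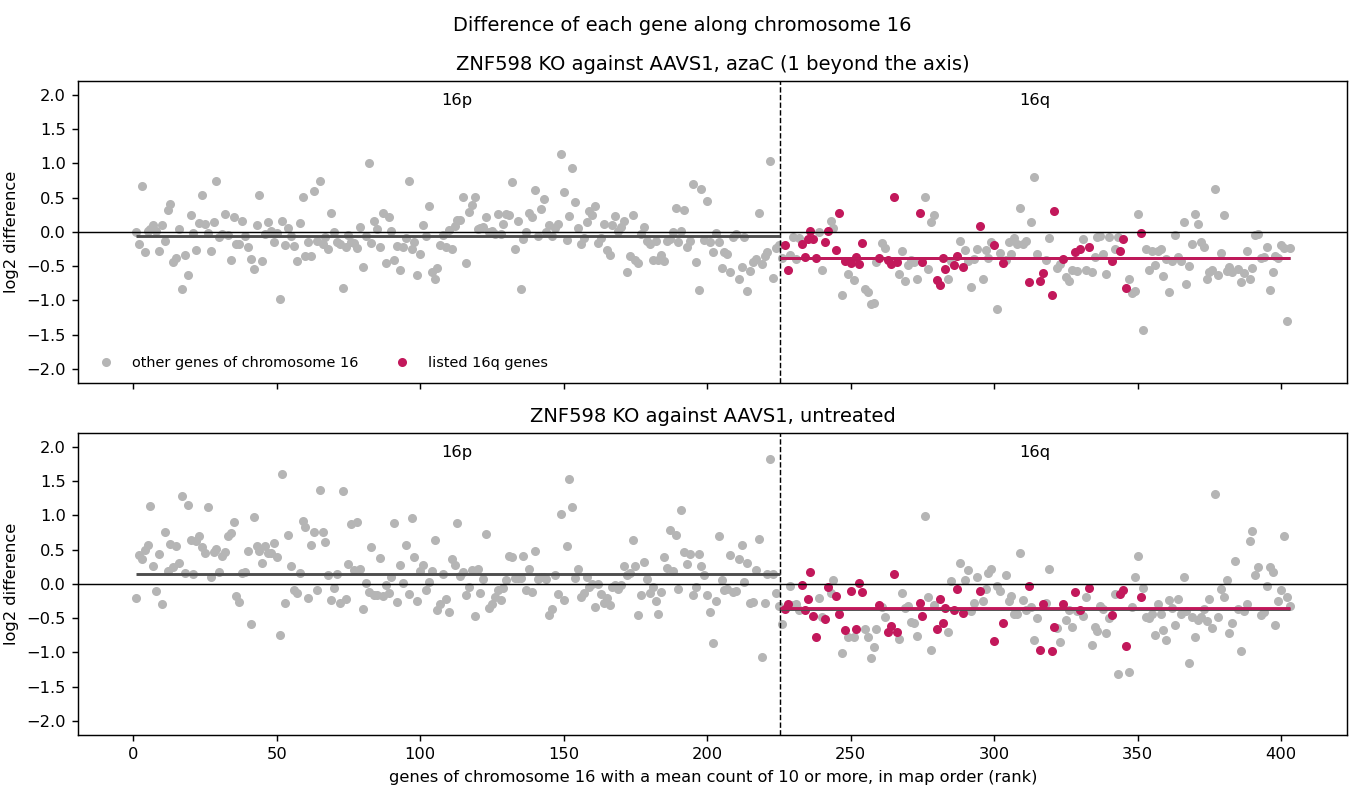
Log2 difference of ZNF598 KO against AAVS1 for each gene of chromosome 16 with a mean count of at least 10, in map order, with azaC (top) and untreated (bottom); the dashed line parts 16p from 16q, horizontal bars are medians, and 1 gene lies beyond the azaC axis. The listed 16q genes (medians -0.37 and -0.36) lie among the other 16q genes (-0.38 and -0.36), while 16p lies at -0.06 with azaC and at 0.15 untreated (-0.02 without AAVS1 replicate 2).

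The genes of chromatin, transcription and replication were all below 0 in untreated ZNF598 KO against AAVS1, 14 of 14, with a median of -0.29. With azaC 10 of 14 were, with a median of -0.30. BRD7, a bromodomain subunit of the PBAF remodeller, had 138, 158 and 171 CPM in untreated ZNF598 KO, against 256, 228 and 186 CPM in AAVS1. With azaC it had 150.2, 167 and 210.2 CPM in ZNF598 KO, against 192, 196 and 199 CPM in AAVS1. Its groups were apart untreated, with a log2 difference of -0.52 ± 0.15, and overlapped with azaC at -0.15 ± 0.15. Exons on the other strand cover 42.4% of the exon length of BRD7. CTCF, the insulator protein that anchors chromatin loops, had 189.6, 172 and 209 CPM in untreated ZNF598 KO, against 203, 236 and 174 CPM in AAVS1. With azaC CTCF had 184, 230.4 and 196 CPM in ZNF598 KO, against 178, 218 and 179 CPM in AAVS1. CTCF was thus among the members with little difference, and its groups overlapped in both states. POLR2C, an RNA polymerase II subunit, was at -0.70 ± 0.18 untreated and -0.44 ± 0.19 with azaC. ORC6, of the origin recognition complex, was at -0.29 ± 0.20 and -0.55 ± 0.20. E2F4, a transcription factor of the cell cycle, was at -0.42 ± 0.23 and -0.52 ± 0.23. The 4 members of this role above 0 with azaC were CTCF, the pocket-protein repressor RBL2 at 0.28 ± 0.32, the osmotic stress factor NFAT5 at 0.31 ± 0.50 and the lysine methyltransferase SETD6 at 0.28 ± 0.32.

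The genes of RNA processing, decay and nuclear transport were below 0 in 7 of 7 in both states, with medians of -0.47 untreated and -0.38 with azaC. Against the same untreated AAVS1 libraries 6 of 7 were also below 0 in RNF25 KO, GCN2 KO and RNF25 GCN2 DKO. The medians there were -0.26, -0.22 and -0.28. In untreated eS31 K113R 5 of 7 were, at -0.04. With azaC the medians of these 4 lines ran from -0.12 to -0.01. NUTF2, which carries the GTPase Ran into the nucleus, had 251, 253 and 271 CPM in untreated ZNF598 KO, against 332, 463 and 352 CPM in AAVS1. With azaC NUTF2 had 246, 229 and 245 CPM in ZNF598 KO, against 324, 368 and 296 CPM in AAVS1. Every ZNF598 KO library was below every AAVS1 library, at -0.57 ± 0.16 untreated and -0.46 ± 0.16 with azaC on the log2 scale. Untreated NUTF2 was also below all AAVS1 libraries in RNF25 KO and GCN2 KO. NUDT21, a subunit of the cleavage factor that sets polyadenylation sites, had 116, 103 and 149 CPM in untreated ZNF598 KO, against 151, 231 and 196 CPM in AAVS1. With azaC NUDT21 had 129, 115 and 115 CPM in ZNF598 KO, against 147, 155 and 163 CPM in AAVS1. The groups did not overlap in either state, at -0.65 ± 0.18 and -0.37 ± 0.18. CNOT1, the scaffold of the CCR4-NOT deadenylase, was at -0.47 ± 0.16 and -0.44 ± 0.16, also without overlap. The splicing helicase DHX38 was at -0.46 ± 0.19 and -0.43 ± 0.19. DDX19A, a helicase of mRNA export, was at -0.12 ± 0.31 and -0.30 ± 0.31, and its reads may be split with its close neighbour DDX19B.

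In the ubiquitin, NEDD8 and proteolysis role 6 of 7 members were below 0 untreated and 5 of 7 with azaC, with medians of -0.22 and -0.28. RFWD3, a ubiquitin ligase of replication fork repair, had 42.9, 85.7 and 54.7 CPM in untreated ZNF598 KO, against 70.1, 159 and 112.9 CPM in AAVS1. With azaC RFWD3 had 57.9, 45.9 and 57.7 CPM in ZNF598 KO, against 111, 74.7 and 99.7 CPM in AAVS1. Untreated AAVS1 replicate 1 lay below ZNF598 KO replicate 2, so the groups overlapped there, and they were apart with azaC, at -0.91 ± 0.24 and -0.82 ± 0.24. The highest untreated AAVS1 value of RFWD3 was that of replicate 2, the library apart in GC content. NAE1, a subunit of the enzyme that activates NEDD8, had 108, 105 and 126 CPM in untreated ZNF598 KO, against 127, 172 and 135 CPM in AAVS1. With azaC NAE1 had 80.8, 108 and 97.6 CPM in ZNF598 KO, against 153, 141 and 124 CPM in AAVS1. NAE1 was lower in all ZNF598 KO libraries in both states, at -0.36 ± 0.16 and -0.55 ± 0.16. SIAH1, a RING ubiquitin ligase, had 11.2, 12.6 and 11.1 CPM in untreated ZNF598 KO, against 13.7, 9.91 and 7.66 CPM in AAVS1. With azaC SIAH1 had 12.9, 18.5 and 18.5 CPM in ZNF598 KO, against 21.7, 14.0 and 14.2 CPM in AAVS1. SIAH1 and COQ9 were the 2 members above 0 in both states, and both overlapped AAVS1 in both. PSMD7, a lid subunit of the proteasome, was at -0.15 ± 0.16 and -0.28 ± 0.17, and the deubiquitinase CYLD at -0.05 ± 0.37 and 0.02 ± 0.37.

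Membrane traffic and cytoskeleton genes were below 0 in 13 of 13 in both states, with medians of -0.30 untreated and -0.38 with azaC. DYNC1LI2, a light intermediate chain of the dynein motor, had 172, 156 and 158 CPM in untreated ZNF598 KO, against 251, 237 and 234 CPM in AAVS1. With azaC DYNC1LI2 had 177, 154 and 179 CPM in ZNF598 KO, against 233, 201 and 229 CPM in AAVS1. Replicates were tight and the groups were apart, at -0.57 ± 0.16 and -0.38 ± 0.16. Untreated DYNC1LI2 was also below all AAVS1 libraries in RNF25 KO, RNF25 GCN2 DKO and eS31 K113R. SNTB2, the scaffold protein beta-2-syntrophin, had 23.1, 25.7 and 23.7 CPM in untreated ZNF598 KO, against 50.5, 46.6 and 45.3 CPM in AAVS1. With azaC SNTB2 had 20.7, 19.9 and 16.4 CPM in ZNF598 KO, against 26.0, 32.1 and 35.3 CPM in AAVS1. SNTB2 was lower in each ZNF598 KO library in both states, at -0.97 ± 0.20 and -0.71 ± 0.21. VPS35, the core of retromer, had 136, 158 and 129 CPM in untreated ZNF598 KO, against 192, 217 and 134 CPM in AAVS1. With azaC VPS35 had 146, 175 and 132 CPM in ZNF598 KO, against 192, 186 and 141 CPM in AAVS1. In both states replicate 3 of AAVS1 lay within the range of ZNF598 KO, so the VPS35 groups overlapped at -0.36 ± 0.17 and -0.20 ± 0.17. The chemokine-like membrane protein gene CMTM3 was at -0.66 ± 0.23 and -0.70 ± 0.23 without overlap, and its neighbour CMTM4 at -0.22 ± 0.19 and -0.77 ± 0.20. Untreated CMTM3 was also below all AAVS1 libraries in RNF25 KO, RNF25 GCN2 DKO and eS31 K113R. GLG1, a membrane protein of the Golgi, had 105, 112.5 and 102 CPM in untreated ZNF598 KO, against 107, 107 and 124 CPM in AAVS1, and its groups overlapped at -0.08 ± 0.19. With azaC GLG1 had 122, 85.02 and 109 CPM in ZNF598 KO, against 100.4, 119.8 and 119 CPM in AAVS1. The groups overlapped again, at -0.10 ± 0.19. ARL2BP, which binds the GTPase ARL2, had 32.4, 46.8 and 28.4 CPM in untreated ZNF598 KO, against 59.0, 61.0 and 54.2 CPM in AAVS1, without overlap, at -0.69 ± 0.23. In GCN2 KO and eS31 K113R untreated ARL2BP was below all AAVS1 libraries as well. With azaC ARL2BP had 38.6, 50.7 and 29.2 CPM in ZNF598 KO, against 59.2, 49.6 and 48.8 CPM in AAVS1, with overlap, at -0.41 ± 0.23.

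Of the 6 metabolic and redox genes, 4 were below 0 untreated and 5 with azaC, with medians of -0.38 and -0.47. CYB5B, the cytochrome b5 of the outer mitochondrial membrane, had 40.3, 44.5 and 34.2 CPM in untreated ZNF598 KO, against 59.9, 102 and 72.1 CPM in AAVS1. With azaC CYB5B had 24.3, 50.1 and 37.8 CPM in ZNF598 KO, against 56.3, 88.2 and 66.4 CPM in AAVS1. CYB5B was the most negative member in both states, at -0.99 ± 0.24 and -0.92 ± 0.25, without overlap, and 35.1% of its exon length is shared with another gene on the same strand. CIAPIN1, which builds cytosolic iron-sulfur clusters, had 68.0, 53.1 and 49.5 CPM in untreated ZNF598 KO, against 86.4, 71.4 and 103 CPM in AAVS1. With azaC CIAPIN1 had 50.1, 59.7 and 67.0 CPM in ZNF598 KO, against 74.4, 69.1 and 102 CPM in AAVS1. Those groups did not overlap, at -0.61 ± 0.21 and -0.47 ± 0.22. OGFOD1, a prolyl hydroxylase of a ribosomal protein, had 92.5, 134 and 73.2 CPM in untreated ZNF598 KO, against 139, 51.1 and 109 CPM in AAVS1. With azaC OGFOD1 had 87.2, 111 and 111 CPM in ZNF598 KO, against 169.7, 151 and 107 CPM in AAVS1. The lowest untreated AAVS1 value was that of replicate 2, the library apart in GC content, and the differences were 0.02 ± 0.27 and -0.47 ± 0.26. COQ9, needed to make coenzyme Q, had 5.94, 5.14 and 12.1 CPM in untreated ZNF598 KO, against 7.70, 4.96 and 8.93 CPM in AAVS1. With azaC COQ9 had 17.2, 8.23 and 3.56 CPM in ZNF598 KO, against 7.22, 4.01 and 9.49 CPM in AAVS1. COQ9 had a mean of 15.4 counts and wide overlap. RANBP10, a binding partner of Ran, had 9.91, 7.42 and 15.3 CPM in untreated ZNF598 KO, against 29.1, 12.9 and 17.9 CPM in AAVS1, with overlap. Its untreated log2 difference was -0.83 in ZNF598 KO, -0.84 in RNF25 KO, -0.61 in eS31 K113R, -0.51 in GCN2 KO and -0.29 in RNF25 GCN2 DKO. With azaC RANBP10 had 15.02, 7.54 and 7.13 CPM in ZNF598 KO, against 11.6, 15.03 and 6.78 CPM in AAVS1. These counts and medians by role include untreated AAVS1 replicate 2. With that library left out, the untreated counts below 0 in ZNF598 KO were 11 of 14 for chromatin, transcription and replication, 7 of 7 for RNA processing, 4 of 7 for ubiquitin, NEDD8 and proteolysis, 12 of 13 for membrane traffic and 6 of 6 for metabolism. The role medians were then -0.18, -0.37, -0.14, -0.35 and -0.38 in the same order.

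**Figure D3:**
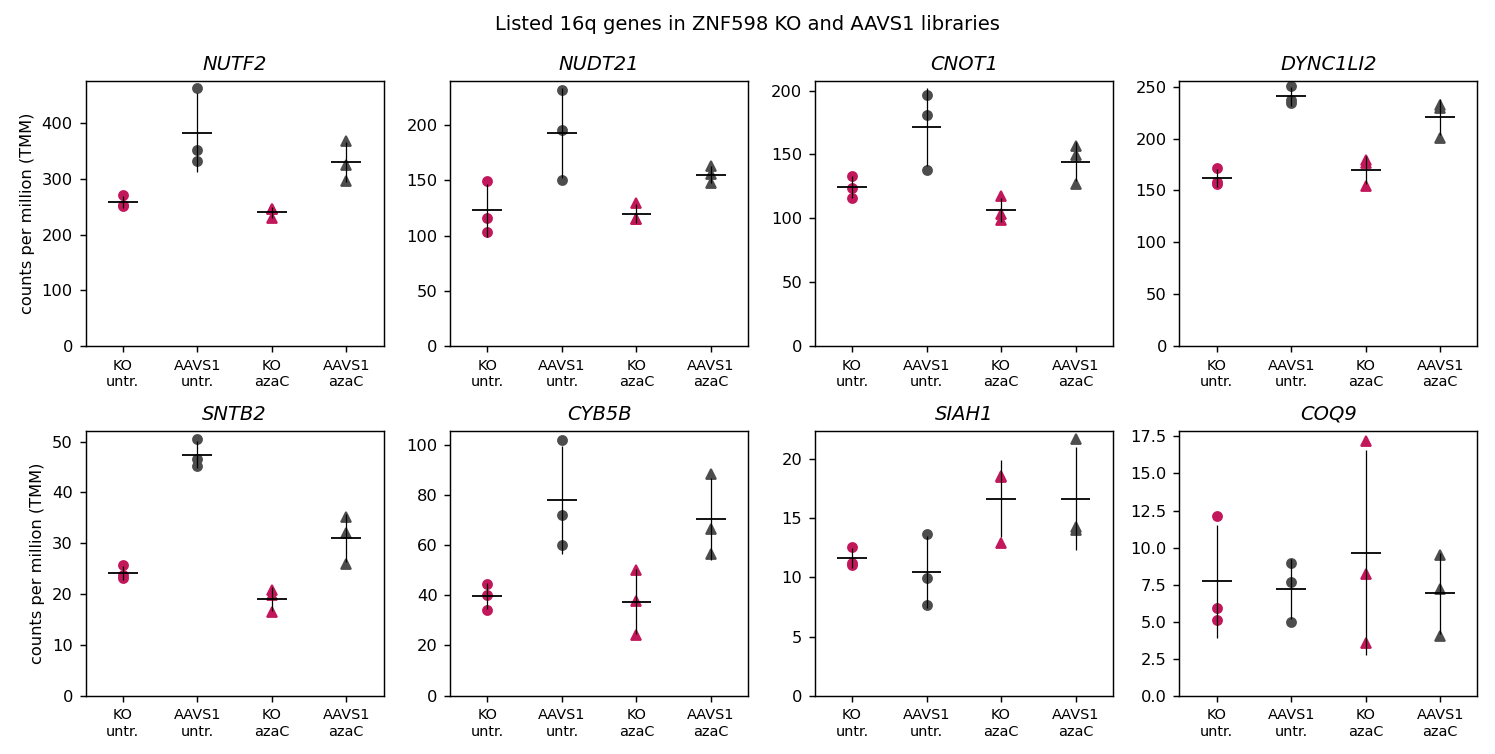
CPM in each library for 8 listed 16q genes in ZNF598 KO (magenta) and AAVS1 (grey), untreated (circles) and with azaC (triangles), with the mean and SD of 3. NUTF2, NUDT21, CNOT1, DYNC1LI2, SNTB2 and CYB5B are lower in every ZNF598 KO library than in every AAVS1 library of the same state, whereas SIAH1 and COQ9 overlap.

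At the edges of the set the values were mixed. The nearest measured gene on the centromeric side, SHCBP1, was at -0.58 ± 0.39 untreated and -0.38 ± 0.39 with azaC, with overlap in both. Next to CFDP1 on the telomeric side, TMEM170A was at -0.06 ± 0.27 untreated, with overlap. With azaC TMEM170A had 9.30, 15.8 and 12.1 CPM in ZNF598 KO, against 32.5, 42.1 and 25.8 CPM in AAVS1, without overlap. CFDP1, a chromatin remodelling factor, had 63.4, 50.3 and 56.8 CPM in untreated ZNF598 KO, against 61.6, 76.3 and 55.5 CPM in AAVS1. With azaC CFDP1 had 64.4, 60.3 and 49.2 CPM in ZNF598 KO, against 66.4, 65.1 and 43.4 CPM in AAVS1. The CFDP1 differences were -0.19 ± 0.19 and -0.01 ± 0.19. At this end of the set CFDP1 and GLG1 thus overlapped AAVS1 in both states, and RFWD3 between them in untreated cells. At the count threshold, IRX5 (mean 14.8 counts) and COQ9 (15.4) were just inside and AKTIP (5.73) just outside. The 5 listed genes left out were AKTIP, the mRNA demethylase gene FTO (122 counts in all libraries together), the nuclear pore gene NUP93 (104), the tRNA deaminase gene ADAT1 (98) and the death receptor adaptor gene TRADD (6).

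Genes that work with the listed genes but lie on other chromosomes were spread around 0 in ZNF598 KO against AAVS1. The 18 partner lists, such as the other retromer, proteasome, CCR4-NOT, dynein and RNA polymerase II subunits, named 131 genes, of which 123 could be tested. By edgeR's quasi-likelihood test with Benjamini-Hochberg adjustment 0 of the 123 passed in ZNF598 KO against AAVS1 untreated, beside 0.93% of all genes, and 0 with azaC, beside 0.677%. At an unadjusted p under 0.05 there were 5 and 4. DESeq2 and limma-voom also called 0 in either state. The medians were 0.00 untreated and 0.05 with azaC, and 61 and 53 of the 123 were below 0. Leaving out untreated AAVS1 replicate 2 gave an untreated median of 0.04, with 57 below 0. Without azaC-treated AAVS1 replicate 1, HOOK1 of the FHF complex passed with azaC. For the proteasome, 17 partners had medians of 0.03 and 0.07 while PSMD7 was at -0.15 ± 0.16 and -0.28 ± 0.17. For RNA polymerase II, 11 partners had medians of 0.03 and -0.01 while POLR2C was at -0.70 ± 0.18 and -0.44 ± 0.19. For CCR4-NOT, 12 partners had medians of -0.09 and -0.09 while CNOT1 was at -0.47 ± 0.16 and -0.44 ± 0.16. Some short lists lay away from 0 in untreated ZNF598 KO. Cleavage factor Im, the partners of NUDT21, had a median of -0.31 with 2 of 2 below 0, the COG tether of COG4 -0.19 with 5 of 5 and retromer -0.14 with 6 of 7. Without untreated AAVS1 replicate 2 these medians were -0.16, 0.05 and -0.05, and those of the proteasome, RNA polymerase II and CCR4-NOT -0.02, -0.15 and 0.08. With azaC cleavage factor Im was at 0.20, the COG tether at -0.16 and retromer at -0.07, and the DREAM partners of RBL2 and E2F4 had a median of 0.28 with 0 of 8 below 0. Over the 18 lists the medians ran from -0.31 to 0.50 untreated and from -0.16 to 0.28 with azaC, all libraries included. Without untreated AAVS1 replicate 2 the untreated range was wider, with the FHF partners of AKTIP at 0.79 instead of 0.40.

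Treatment with azaC for 4 h moved none of the members past the threshold in any line. By edgeR's quasi-likelihood test 0 of 48 passed in azaC-treated against untreated ZNF598 KO (0.117% of all genes called, 1 member at an unadjusted p under 0.05). The counts were also 0 in RNF25 KO (0.469%, 5 members), GCN2 KO (0.0%, 3 members), RNF25 GCN2 DKO (0.0%, 2 members), eS31 K113R (0.515%, 4 members) and AAVS1 (0.117%, 2 members). DESeq2 and limma-voom called 0 members in each of the 6. With at most 0.515% of all genes called in a line, 0 of 48 members is near the share of all genes. The median log2 difference of the members with azaC was -0.02 in ZNF598 KO and -0.08 in AAVS1. The azaC response of ZNF598 KO minus that of AAVS1 passed for 0 members with 0 at an unadjusted p under 0.05, and for 0.0% of all genes, with a median of 0.05 over the members. That difference in response is built from the groups the members were chosen on, so for the members it is a description and no independent test. The azaC contrasts within ZNF598 KO and within AAVS1 use those groups too. Without untreated AAVS1 replicate 2 the median in AAVS1 was -0.01 and that of the difference in response 0.00.

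In the other lines the members' medians lay nearer to 0 than in ZNF598 KO. The members were chosen as lower in ZNF598 KO, so this order of the lines is no independent result. The median log2 difference of the members against AAVS1 was -0.07 in RNF25 KO, -0.15 in GCN2 KO, -0.05 in RNF25 GCN2 DKO and -0.04 in eS31 K113R untreated. With azaC it was 0.05, -0.03, 0.03 and -0.04 in the same lines, and with HF 0.08 in RNF25 KO and -0.02 in GCN2 KO. Without untreated AAVS1 replicate 2 the untreated medians were 0.00, -0.05, 0.07 and -0.03, and without RNF25 KO replicate 2 the azaC median of RNF25 KO was 0.07. The comparisons of 1 state share their AAVS1 libraries. Untreated and azaC values below 0 in these lines thus also draw on AAVS1 values the members were chosen by. Untreated, every library was below every AAVS1 library for 6 members in RNF25 KO and 3 in GCN2 KO. It was 3 in RNF25 GCN2 DKO and 6 in eS31 K113R. Of all 11078 genes it was 667, 710, 664 and 796 in that order. With azaC it was 0, 1, 2 and 5 members, and 720, 743, 847 and 1088 of all genes. Relative to AAVS1, with all libraries included, the members' share of counts ran from 0.912 in untreated GCN2 KO to 1.13 in HF-treated RNF25 KO.

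**Figure D4:**
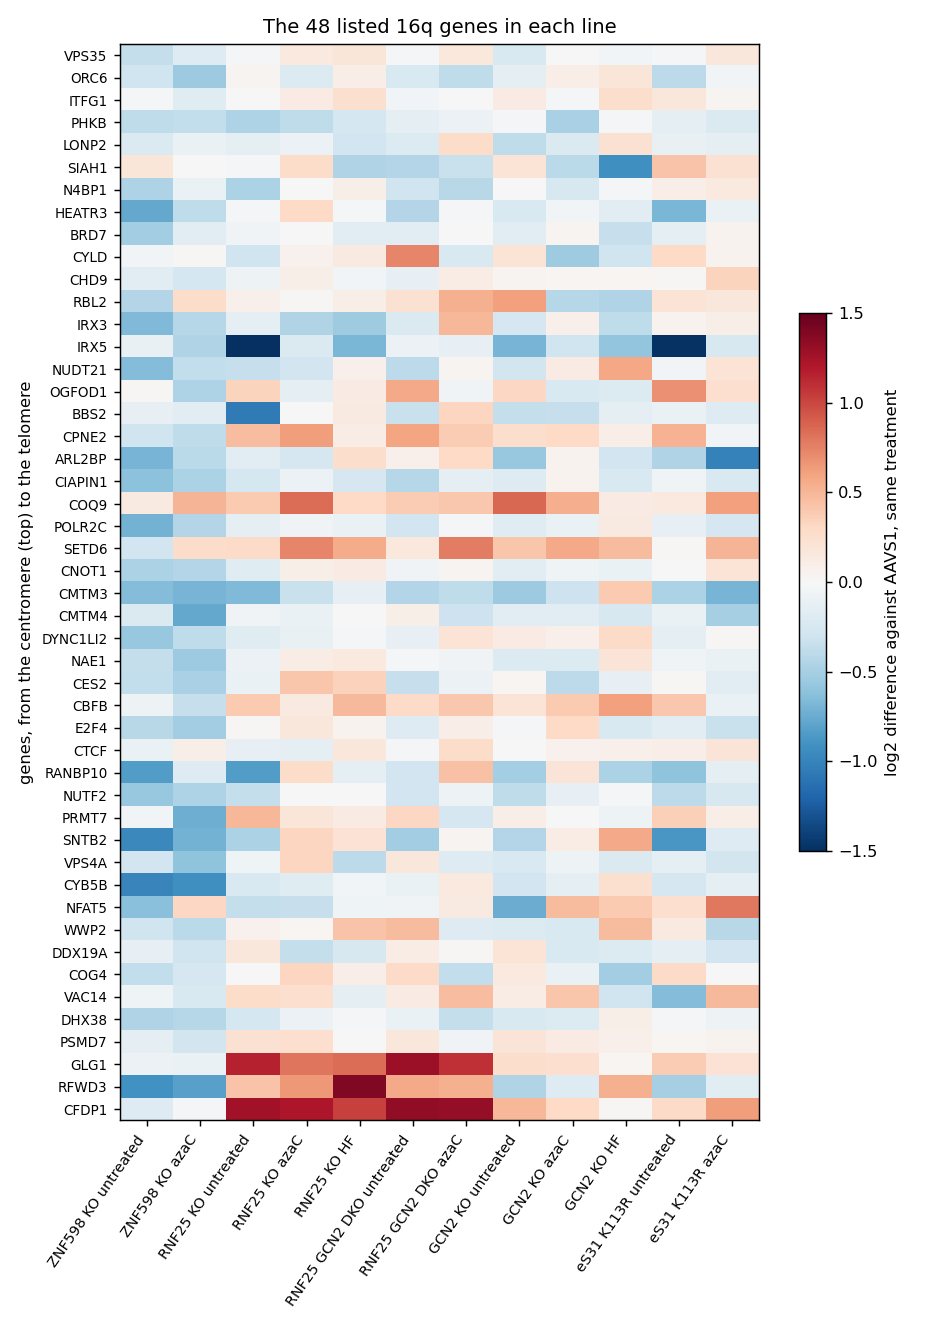
Log2 difference of each of the 48 listed genes against AAVS1 of the same treatment (columns), from the centromere (top) to the telomere (bottom), with colours that saturate at ±1.5. ZNF598 KO columns are mostly blue (45 and 41 of 48 below 0), and GLG1 and CFDP1 at the bottom are red in RNF25 KO and RNF25 GCN2 DKO.

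GLG1 and CFDP1, near the telomeric end of the set, were higher in RNF25 KO and in RNF25 GCN2 DKO than in AAVS1 in every state measured. In untreated cells CFDP1 had 167, 156 and 144 CPM in RNF25 KO and 175, 148 and 168 CPM in RNF25 GCN2 DKO, against 61.6, 76.3 and 55.5 CPM in AAVS1. Its log2 difference was 1.26 ± 0.19 in RNF25 KO (adjusted p 9.33e-06, edgeR) and 1.33 ± 0.19 in RNF25 GCN2 DKO (adjusted p 2.89e-06, edgeR). All libraries of both lines were above all AAVS1 libraries. GLG1 had 222, 300.2 and 229 CPM in untreated RNF25 KO and 294, 281 and 245 CPM in RNF25 GCN2 DKO, against 107, 107 and 124 CPM in AAVS1. Its differences were 1.15 ± 0.19 (adjusted p 4.36e-05, edgeR) and 1.28 ± 0.19 (adjusted p 6.16e-06, edgeR), again without overlap. Without AAVS1 replicate 2 both genes still passed in both lines, with CFDP1 at 1.41 in RNF25 KO and 1.48 in RNF25 GCN2 DKO and GLG1 at 1.12 and 1.24. They were the 2 of 48 members called in each line, beside 1.62% of all genes in RNF25 KO and 1.42% in RNF25 GCN2 DKO. At an unadjusted p under 0.05 there were 8 members in each line. The member with the most negative difference in untreated RNF25 KO was the homeobox gene IRX5, at -1.53 ± 0.49 from a mean of 14.8 counts, which did not pass (adjusted p 0.122, edgeR).

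With azaC CFDP1 had 154, 121 and 132 CPM in RNF25 KO and 138, 159 and 141 CPM in RNF25 GCN2 DKO, against 66.4, 65.1 and 43.4 CPM in AAVS1. GLG1 had 236, 152 and 206 CPM in azaC-treated RNF25 KO and 209, 267 and 248 CPM in RNF25 GCN2 DKO, against 100.4, 119.8 and 119 CPM in AAVS1. Both were again the 2 members called in each line, beside 2.26% of all genes in RNF25 KO and 1.55% in RNF25 GCN2 DKO. In RNF25 GCN2 DKO CFDP1 was at 1.32 ± 0.19 (adjusted p 5.11e-06, edgeR) and GLG1 at 1.09 ± 0.19 (adjusted p 0.000114, edgeR). In RNF25 KO CFDP1 was at 1.21 ± 0.19 (adjusted p 2.43e-05, edgeR) and GLG1 at 0.80 ± 0.18 (adjusted p 0.00713, edgeR). GLG1 in azaC-treated RNF25 KO missed the threshold without AAVS1 replicate 1 (log2 0.73, adjusted p 0.0692) or RNF25 KO replicate 1 (0.67, adjusted p 0.0594), and in a fit of the compared libraries alone (0.80, adjusted p 0.106). Without RNF25 KO replicate 2, the library apart in GC content, it was at 0.97 (adjusted p 0.00166) and CFDP1 at 1.30, which still passed.

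With HF, RFWD3 joined them in RNF25 KO, so that 3 of 48 members passed, beside 1.53% of all genes. RFWD3 had 254, 157 and 183 CPM in HF-treated RNF25 KO, against 62.4, 80.6 and 83.7 CPM in AAVS1. CFDP1 had 128, 150.3 and 176 CPM in HF-treated RNF25 KO, against 72.4, 88.8 and 61.2 CPM in AAVS1, and GLG1 274, 316 and 266 CPM, against 147, 196 and 135 CPM in AAVS1. The groups did not overlap for any of the 3. By edgeR RFWD3 was at 1.39 ± 0.23 (adjusted p 0.000114), CFDP1 at 1.03 ± 0.18 (adjusted p 0.000296) and GLG1 at 0.84 ± 0.18 (adjusted p 0.0042). GLG1 missed the threshold without HF-treated AAVS1 replicate 3 (0.73, adjusted p 0.0692). RFWD3 did not pass in untreated or azaC-treated RNF25 KO, at 0.42 ± 0.23 and 0.65 ± 0.23, and whether its difference varied with treatment was not tested. The untreated value includes AAVS1 replicate 2, the library apart in GC content, at 159 CPM.

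**Figure D5:**
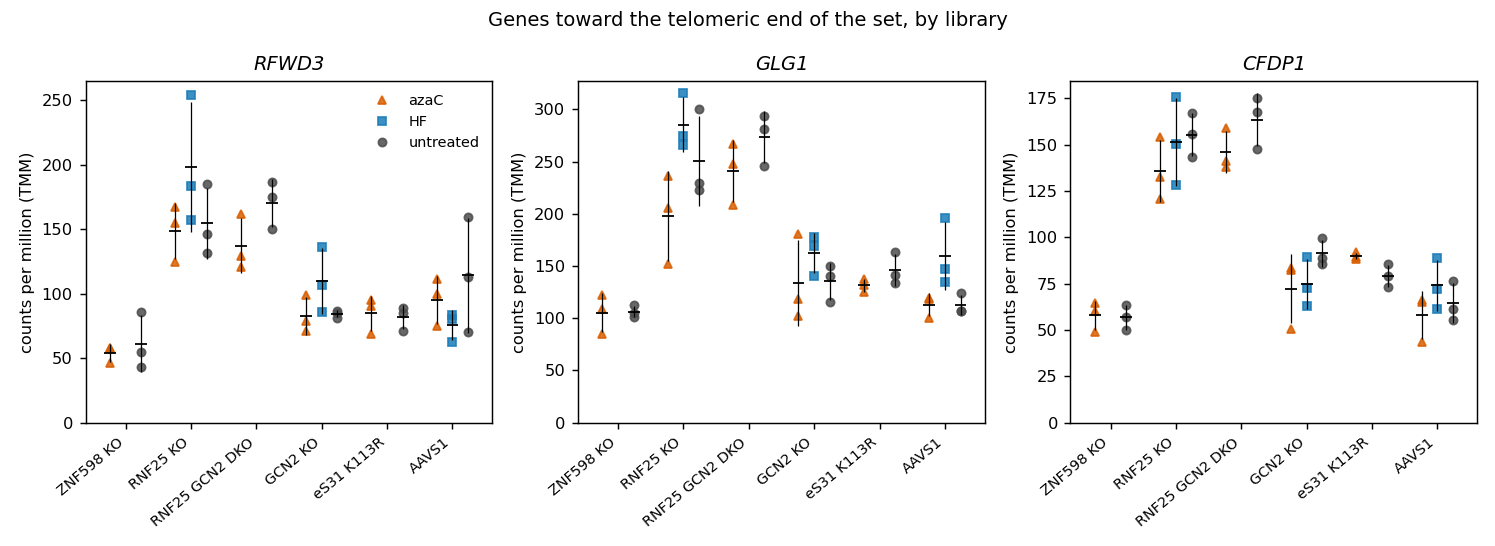
CPM of RFWD3, GLG1 and CFDP1 in each library by genotype and treatment, with the mean and SD of 3. CFDP1 and GLG1 lie higher in RNF25 KO and RNF25 GCN2 DKO than in AAVS1 in each state, and ZNF598 KO libraries overlap AAVS1 for both genes.

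The genes around GLG1 and CFDP1 were higher as well. A stretch of 1.31 Mb (chr16:74447427-75761872), chosen after its values were seen and so not tested, held 11 genes with a mean count of at least 10: GLG1, RFWD3, FA2H, WDR59, ZNRF1, BCAR1, CFDP1, TMEM170A, GABARAPL2, KARS and TERF2IP. All 11 were above 0 in RNF25 KO and RNF25 GCN2 DKO against AAVS1 in every state. The median log2 difference was 1.04 untreated, 0.80 with azaC and 1.03 with HF in RNF25 KO, and 1.03 untreated and 1.09 with azaC in RNF25 GCN2 DKO. These genes took 1.82 ± 0.10 per 1000 counts in untreated RNF25 KO and 1.83 ± 0.13 in RNF25 GCN2 DKO, against 0.917 ± 0.148 in AAVS1 (SD, n = 3 each). Untreated AAVS1 replicate 2 was at 1.08 and its sister libraries at 0.81 and 0.86. In untreated cells the libraries did not overlap AAVS1 for 9 of the 11 genes in RNF25 KO, beside 6.14% of all genes, and for 8 in RNF25 GCN2 DKO, beside 6.34%. Without untreated AAVS1 replicate 2 the medians were 1.09 in RNF25 KO and 0.94 in RNF25 GCN2 DKO, with 10 of 11 apart in each, beside 11.4% and 12.9% of all genes. Without RNF25 KO replicate 2 the azaC median in RNF25 KO was 0.93. The flanking genes were at other values in untreated RNF25 KO, with PSMD7 at 0.23 and MON1B at -0.55. In GCN2 KO and eS31 K113R the medians of the 11 genes lay between -0.16 and 0.06 over all states. In ZNF598 KO they were -0.33 untreated and -0.56 with azaC. Without untreated AAVS1 replicate 2 the untreated medians were 0.09 in GCN2 KO, 0.01 in eS31 K113R and -0.34 in ZNF598 KO.

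In GCN2 KO 0 of the 48 members passed by edgeR's test untreated (1.05% of all genes called, 5 members at an unadjusted p under 0.05), with azaC (1.25%, 0 members) and with HF (3.74%, 6 members). DESeq2 and limma-voom called 0 members untreated and with azaC. With HF DESeq2 called 1, NUDT21, as did edgeR with the replicate number as a block, and limma-voom called 0. NUDT21 had 199.9, 215 and 243 CPM in HF-treated GCN2 KO, against 141, 143 and 156 CPM in AAVS1. Its log2 difference was 0.58 ± 0.18, with an adjusted p of 0.0591 by edgeR.

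In eS31 K113R 1 member passed in each state, and both were lower than in AAVS1. Members were chosen as lower in ZNF598 KO than in these AAVS1 libraries, which favours genes with high AAVS1 values. A call lower than AAVS1 thus draws on values used in the choice and is no independent test. In both states the share of members that passed was below that of all genes. Untreated, the member called was SNTB2, beside 2.87% of all genes. SNTB2 had 23.5, 30.3 and 23.6 CPM in untreated eS31 K113R, against 50.5, 46.6 and 45.3 CPM in AAVS1, a log2 difference of -0.87 ± 0.20 (adjusted p 0.00621, edgeR). It did not pass with replicate 1 of eS31 K113R alone (-1.002, adjusted p 0.146) or without that replicate (-0.81, adjusted p 0.0528), nor in a fit of the compared libraries alone (adjusted p 0.267) or without the filter on low counts (adjusted p 0.202). Without AAVS1 replicate 2 it passed at -0.89 (adjusted p 0.0211, edgeR). Untreated SNTB2 was also below all AAVS1 libraries in RNF25 KO, GCN2 KO and RNF25 GCN2 DKO, at -0.47 ± 0.20, -0.44 ± 0.20 and -0.52 ± 0.20, and did not pass there. Its untreated AAVS1 values were thus above those of all other untreated lines. With azaC the member called was ARL2BP, beside 3.58% of all genes. ARL2BP had 23.4, 24.7 and 29.5 CPM in azaC-treated eS31 K113R, against 59.2, 49.6 and 48.8 CPM in AAVS1, a log2 difference of -1.01 ± 0.24 (adjusted p 0.00499, edgeR). Exons on the other strand cover 84.5% of its exon length, and it is not stated if counting used strand. In untreated eS31 K113R ARL2BP had 47.1, 39.9 and 40.4 CPM, also below all AAVS1 libraries, and did not pass. Whether either difference varied with treatment was not tested.

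Among 9268 other genes with a mean count of at least 10, the ones most like the members were ranked by Pearson's r of log2 CPM with the members' mean over the 45 libraries, in which the 6 ZNF598 KO libraries share a low mean. The 10 highest were CTSF (r = 0.80), SERPINF1 (0.75), ZNF598 (0.74), SPINT2 (0.72), MCCC2 (0.72), TBC1D1 (0.72), FUCA2 (0.71), MICAL2 (0.70), TMEM35A (0.70) and SOCS2 (0.70). None of these 10 lies on 16q, and 13 of the 50 highest do, beside 1.4% of all genes ranked. Of those on 16q, TERF2IP, KARS, TMEM170A, GABARAPL2, FA2H and ZNRF1 lie in the stretch around GLG1 and CFDP1 that was higher in RNF25 KO and RNF25 GCN2 DKO. Chromosome 4 genes were also among the 50: TBC1D1, PDS5A, LIMCH1, KLHL5, SMIM20, N4BP2, SETD7, UGDH, RFC1 and NCAPG. Chromosome 4 held 360 of the 11078 genes fitted, a larger set than the genes ranked here. Other chromosomes had several genes among the 50 too, such as FEZF1, CNTNAP2, SNX10 and BAIAP2L1 on chromosome 7. The makeup of the 50 by chromosome was not tested.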

How the data were processed

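Per the labels' protocols, 45 HAP1 libraries were made from poly(A) RNA with a CORALL mRNA-Seq V2 kit. The authors deposited raw counts per gene. The submitters' processing notes name STAR 2.7.10b, HTSeq 0.9.1 and GRCh38. Which annotation was counted, whether by strand, and whether UMIs were used is not given in the sources used here. All 45 count columns were used. Genes with an Ensembl ID but no symbol held 0.0286% of counts and stayed in. Positions came from GENCODE release 29 on GRCh38, and 16q began after the widest stretch of chromosome 16 without a gene (chr16:35912516-46469341).

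A single edgeR 4.0.16 quasi-likelihood fit of all 45 libraries with 15 group means, TMM scaling and filterByExpr (minimum count 10) covered 11078 genes. Benjamini-Hochberg adjusted p-values under 0.05 were called. CPM use TMM-scaled library totals, and log2 differences carry their SE. The members and all lists were chosen with earlier results of these data known. Members were therefore not tested in ZNF598 KO against AAVS1. Members named in full were the ends of the set, the 2 members with most counts of each role, the 3 largest and 3 smallest drops in untreated ZNF598 KO, and every member that passed a test.

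Alternatives were DESeq2 size factors, TMM without chromosome 16, no filter, DESeq2 1.42.0, limma-voom (limma 3.58.1), the compared libraries alone, a replicate block, replicate 1 alone of untreated eS31 K113R, each library left out and, chosen after seeing the data, GC-corrected offsets and gene sets without the libraries apart in GC content. The fit was tested on simulated data. Replicate numbers of the labels paired the samples in 11 of 18 comparisons, where deviations of same-numbered libraries from their group means correlated at 0.11 to 0.37 in every pair. In the other 7 the correlations ran from -0.04 to 0.28. No 2 libraries of a group agreed within sampling noise: chi-square per degree of freedom was at least 3.00 in 45 pairs. Depth limits what can be said of genes with few counts. R 4.3.3 and Python 3.11.15 were used.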

Additional observations from a re-analysis of the deposited data

How the results depend on the processing

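The median of the 48 genes in ZNF598 KO against AAVS1 stayed below 0 under each alternative run. Untreated it was -0.36, and it was -0.34 with DESeq2 size factors, -0.33 with limma-voom, -0.34 in the compared libraries alone, and -0.42 to -0.30 with each library left out. With azaC it was -0.37, and -0.41 to -0.32 with each library left out. GLG1 and CFDP1 in RNF25 KO and RNF25 GCN2 DKO stayed above 0 under each alternative. In untreated RNF25 KO 2 members became 4 with GC-corrected offsets, with CMTM3 and IRX5 added. In azaC-treated RNF25 KO 2 became 1 in the compared libraries alone and 1 to 2 with each library left out, and in HF-treated RNF25 KO the left-out range was 2 to 3. In untreated eS31 K113R 1 became 0 without the filter on low counts, in the compared libraries alone and with replicate 1 alone, 2 with GC-corrected offsets, and 0 to 1 with each library left out. In azaC-treated eS31 K113R, a comparison in which the replicate numbers did not pair the samples, 1 became 3 with the replicate block (CFDP1 and CMTM3 added), 2 with DESeq2, 2 with GC-corrected offsets, and 1 to 2 with each library left out (CMTM4 added without AAVS1 replicate 2). In HF-treated GCN2 KO 0 became 1 with the replicate block and 1 with DESeq2. Partner genes called in azaC-treated ZNF598 KO were 0 to 1 with each library left out. The replicate block changed no other call of a member. Over all genes, the compared libraries alone called 24 against 103 in untreated ZNF598 KO, 53 against 179 in RNF25 KO, 15 against 116 in GCN2 KO, 48 against 157 in RNF25 GCN2 DKO and 65 against 318 in eS31 K113R, and 114 against 250 in azaC-treated RNF25 KO. The replicate block called 199 against 103 in untreated ZNF598 KO, 273 against 179 in RNF25 KO, 206 against 116 in GCN2 KO and 245 against 157 in RNF25 GCN2 DKO. With azaC it called 120 against 75 in ZNF598 KO, 420 against 250 in RNF25 KO, 228 against 138 in GCN2 KO and 622 against 397 in eS31 K113R, and with HF 693 against 414 in GCN2 KO. For azaC against untreated cells, it called 97 against 52 in RNF25 KO and 88 against 57 in eS31 K113R, the compared libraries alone called 26 against 52 in RNF25 KO and 4 against 13 in AAVS1, and no filter called 110 against 52 in RNF25 KO, 30 against 13 in AAVS1 and 1 against 0 in RNF25 GCN2 DKO. Replicate 1 alone of untreated eS31 K113R gave 97 against 318 genes in eS31 K113R against AAVS1 and 26 against 57 for azaC. No scaling moved the median of all genes by more than 0.03. The cause of these changes was not tested. Low counts limit single members such as IRX5 and COQ9.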

Other observations

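Shifts along other chromosomes gave a scale for that of 16q. Against AAVS1 the chromosome X genes had a median log2 difference of -0.87 in untreated eS31 K113R and -0.86 with azaC, and of -0.31 in untreated GCN2 KO, -0.31 with azaC and -0.32 with HF. In the same comparisons the medians of all 16q genes were -0.04 and -0.01 in eS31 K113R and lay no lower than -0.06 in GCN2 KO. In ZNF598 KO, 16q was at -0.36 untreated and -0.38 with azaC, and the lowest other chromosome median was -0.05 untreated and -0.06 with azaC. These values include all libraries, describe single lines and were not tested.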
